A study of Mus musculus with 50 samples.

Results

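The mouse *Hoxd* cluster holds 9 genes in one row on chromosome 2, and all 9 (*Hoxd13*, *Hoxd12*, *Hoxd11*, *Hoxd10*, *Hoxd9*, *Hoxd8*, *Hoxd3*, *Hoxd4* and *Hoxd1*) were listed among the 18055 genes of the RNA table. The genes were chosen by name, not by their values. The chromatin data were read over the genes and 10 kb on either side, chr2:74496367-74613200 of the mm9 build, a window of 116834 bases. *Hox* genes encode homeodomain transcription factors that pattern the body axis and the limbs, and those of the cluster are used in order along the chromosome. *Hoxd13* stands at the end used last, in the most posterior tissue and in the digits, and *Hoxd1* at the end used first. In embryonic stem cells (ESCs), which have not taken up any axial position, *Hox* clusters are a textbook target of Polycomb repressive complex 2 (PRC2), in which SUZ12 is a core subunit and EZH2 or its paralog EZH1 methylates lysine 27 of histone H3 (H3K27). Trimethylation of that residue (H3K27me3) marks silent PRC2 targets, whereas acetylation of the same residue (H3K27ac) marks active promoters and enhancers.

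All lines came from E14TG2a, a mouse ESC line grown in serum with LIF and the inhibitors of the 2i medium. Wild-type (WT) cells carried no edit. *Ezh2* KO cells carried a CRISPR/Cas9 deletion designed to remove *Ezh2*, and *Ezh1/2* dKO cells carried such deletions in both *Ezh1* and *Ezh2*. *Ezh2* Y726D cells carried a point change that inactivates the catalytic domain of EZH2 and also lacked *Ezh1*, and *Ezh2* R685C cells carried another point change of EZH2, likewise without *Ezh1*. The mutants were clones picked after PCR, so that a feature of a clone and a feature of its genotype cannot be told apart. RNA was measured in 2 libraries of each line except *Ezh2* R685C, with 3604123 to 5181553 reads on genes per library. Chromatin immunoprecipitation (ChIP) of SUZ12 and of H3K27me3 gave 1 peak list in each of the 5 lines, H3K27ac gave 1 list in each mutant line, and ATAC-seq, which maps open chromatin, gave 1 list in each line except *Ezh2* R685C. The closing sections also use lists of mono- and dimethylated H3K27 in those same lines. They further use HA ChIP lists of *Ezh1/2* dKO cells, untransfected or transfected with a vector for HA-tagged human EZH1. With 1 list per line and target, no difference between lists had a replicate check. The study describes its samples as biological replicates in general terms, but the labels do not tie the RNA libraries to separate cultures, and p-values measure only the spread between these libraries. The edited genes matched the labels. *Ezh2* had 572 ± 36.6 normalised counts in WT and 517 ± 135 in the Y726D line, whose allele is still transcribed, but 1.01 ± 0.0551 in the single knockout and 1.30 ± 0.673 in the double (SD, n = 2). *Ezh1* had 302 ± 107 in WT and 375 ± 4.34 in *Ezh2* KO, where it is intact, against 19.9 ± 5.95 in *Ezh2* Y726D and 17.2 ± 4.53 in *Ezh1/2* dKO (SD, n = 2). All 10 ESC markers, among them *Pou5f1* and *Nanog*, had reads in every library.

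PRC2 in mammals gathers at CpG islands, stretches rich in the dinucleotide CG, and the *Hoxd* genes differed in the number of CpGs just before their starts. In the 250 bases before the annotated start, *Hoxd13* held 31 CpGs, a number that 5.85% of the 22375 promoters of the same length matched or passed. *Hoxd1* followed with 24. The others held 3 to 12, beside a median of 8 over all promoters. Bases after the start were not counted, so these numbers describe only the upstream sequence. The upstream sequences of 3 genes are shown because their transcripts are set side by side below. *Hoxd13* and *Hoxd10*, with 31 and 5 CpGs in those 250 bases, gave the highest mean counts of the cluster in *Ezh1/2* dKO. *Hoxd12*, the neighbour of *Hoxd13*, stayed at a few reads. All lie on the forward strand, *Hoxd13* at chr2:74506117-74506366, *Hoxd12* at chr2:74512736-74512985 and *Hoxd10* at chr2:74528897-74529146 (mm9), outside any annotated exon. Each is printed 5′ to 3′ with the CpGs in capitals.
Hoxd13: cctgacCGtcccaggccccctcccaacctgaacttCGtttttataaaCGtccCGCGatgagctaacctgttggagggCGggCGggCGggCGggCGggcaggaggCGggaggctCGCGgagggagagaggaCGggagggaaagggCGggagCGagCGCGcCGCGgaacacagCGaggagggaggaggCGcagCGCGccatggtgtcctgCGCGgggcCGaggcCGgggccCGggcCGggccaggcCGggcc
Hoxd12: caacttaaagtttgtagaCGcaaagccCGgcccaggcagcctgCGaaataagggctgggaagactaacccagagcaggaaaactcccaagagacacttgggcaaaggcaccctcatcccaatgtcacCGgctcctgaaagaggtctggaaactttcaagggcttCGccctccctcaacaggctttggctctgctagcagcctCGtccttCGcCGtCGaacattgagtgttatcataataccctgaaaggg
Hoxd10: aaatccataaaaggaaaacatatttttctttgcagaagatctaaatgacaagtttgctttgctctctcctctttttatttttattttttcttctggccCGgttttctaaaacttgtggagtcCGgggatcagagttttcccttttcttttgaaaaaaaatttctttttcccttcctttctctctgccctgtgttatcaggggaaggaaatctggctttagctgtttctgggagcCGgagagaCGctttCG

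*Hoxd12* held 9 CpGs, a number reached by 49.6% of promoters, and *Hoxd10* held 5, reached by 63.9%. The last sequence shown belongs to no promoter of the 9 genes. It is the 300 bases around the summit of the strongest SUZ12 peak that *Ezh2* Y726D cells kept between *Hoxd3* and *Hoxd1*, chr2:74590908-74591207 (mm9, forward strand), over an exon of the noncoding transcript *Gm14424*. It holds 35 CpGs, again in capitals.
Element: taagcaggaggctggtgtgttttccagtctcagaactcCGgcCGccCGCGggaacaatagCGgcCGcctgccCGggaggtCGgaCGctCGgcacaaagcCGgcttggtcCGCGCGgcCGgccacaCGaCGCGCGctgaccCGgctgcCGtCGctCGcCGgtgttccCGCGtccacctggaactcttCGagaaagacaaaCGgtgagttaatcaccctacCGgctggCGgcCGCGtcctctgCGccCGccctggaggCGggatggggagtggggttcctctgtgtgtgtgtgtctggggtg

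*SUZ12 over the cluster.* In WT cells SUZ12 was listed at every gene of the cluster. The list held 31 peaks in the window, which covered 50028 bases or 42.8% of it, and all 9 genes had a peak within 5 kb of a transcription start site (TSS), with an exact 95% binomial interval of 66.4% to 100%. Of all 22380 protein-coding genes, 14.4% had one. The 9 genes are neighbours that can share a peak, as *Hoxd12* and *Hoxd11* did here. The binomial intervals take them as independent, which they are not, and serve as description only. Coverage was densest in the posterior part. From the start of *Hoxd11* to the start of *Hoxd10* 73.5% of the bases lay under a peak, from *Hoxd10* to *Hoxd9* 66.5%, and from *Hoxd3* to *Hoxd4* 7.20%. Peak strength, given as the −log10 p of the peak caller, was 125 at *Hoxd13*, 122 at *Hoxd9* and 90.6 at *Hoxd10*. In the anterior part it was 109 at *Hoxd3*, 48.9 at *Hoxd1* and 41.4 at *Hoxd4*. The strongest peak of the window, with 152, was not at any of the 9 genes. It lay 9538 bases before *Hoxd13*, over the annotated start of *Evx2*, a homeobox gene that flanks the cluster.

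*Ezh2* KO cells kept SUZ12 mainly over the posterior genes. Their list held 21 peaks covering 22343 bases, or 19.1% of the window, and 8 of 9 genes had a peak within 5 kb (exact 95% interval 51.8% to 99.7%), where 4.22% of protein-coding genes did. *Hoxd4*, a retinoic acid-responsive gene of the anterior part, had none. The stretch from *Hoxd11* to *Hoxd10* remained covered over 60.1% of its bases and that from *Hoxd10* to *Hoxd9* over 55.3%. From *Hoxd4* to *Hoxd1*, by contrast, 1.98% of the bases were covered, against 41.9% in WT. Read against the 31 WT peaks, those nearest to *Hoxd13* through *Hoxd8* were overlapped in 15 of 17 cases and those nearest to *Hoxd3* through *Hoxd1* in 3 of 14. Over the genome, 23.5% of WT peaks were overlapped in *Ezh2* KO. The strongest peaks of *Ezh2* KO at the 9 genes reached a −log10 p of 52.9 over *Hoxd9* and *Hoxd8*, 36.3 over *Hoxd11* and *Hoxd10*, 28.1 at *Hoxd3* and 13.6 at *Hoxd1*.

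No SUZ12 peak was listed in the window in *Ezh1/2* dKO, in which both catalytic subunits are gone. The count was 0 of 9 genes (exact 95% interval 0% to 33.6%) beside 1.03% of protein-coding genes, in a list of only 317 peaks. A single peak at the *Evx2* end touched 1 of the 31 WT peaks, just outside the window, with a −log10 p of 14.6.

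*Ezh2* Y726D cells, which have EZH2 protein but no active methyltransferase, listed 15 SUZ12 peaks over 11673 bases, 9.99% of the window. Again 8 of 9 genes had a peak within 5 kb and *Hoxd4* had none, beside 10.3% of protein-coding genes. Within this list the peaks of the window were near the middle, with a median width of 610 bases against 579 over the list and a median −log10 p of 15.6 against 14.5. In WT the window peaks had a median width of 1494 bases against 865 over that list. At *Hoxd12*, the single peak within 5 kb lay over *Hoxd11* and none within 1 kb of its own start, and the whole stretch from *Hoxd12* to *Hoxd11* was bare. The strongest values at the 9 genes were 26.8 over *Hoxd9*, 21.9 at *Hoxd3* and 20.2 at *Hoxd11*. At *Hoxd13* the peak had 13.3. As in WT, the strongest peak of the window was the one at the *Evx2* end, with 42.3. Of the 31 WT peaks, 13 were overlapped, 8 of 17 on the *Hoxd13* side and 5 of 14 on the *Hoxd1* side, a share of 41.9% beside 45.4% of all WT peaks. With a stricter peak p of 1e-20, 3 of the 9 genes (*Hoxd11*, *Hoxd9* and *Hoxd3*) kept a SUZ12 peak in this line, beside 2.41% of protein-coding genes.

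**Figure D1:**
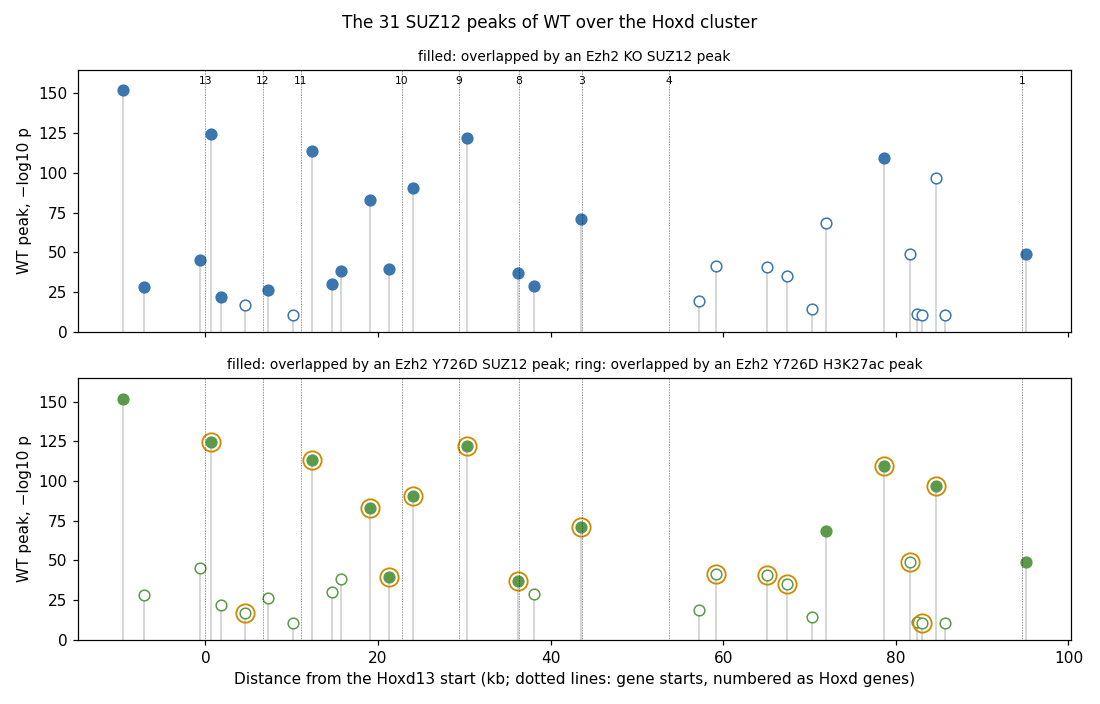
The 31 SUZ12 peaks of WT, by distance of their centre from the *Hoxd13* start (kb) and by their −log10 p in WT. Filled points are overlapped by a SUZ12 peak of *Ezh2* KO (upper panel, 18 peaks, mostly on the left) or of *Ezh2* Y726D (lower panel, 13 peaks, mostly tall), and rings mark the 16 that an *Ezh2* Y726D H3K27ac peak overlaps.

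The WT peaks that *Ezh2* Y726D kept were the strong ones. Their −log10 p in WT ran from 37.2 to 152 with a median of 90.6, while the 18 that were not kept ran from 10.3 to 48.9 with a median of 27.4. The kept ones were also wider in WT, with a median of 1867 against 945 bases, and held a median of 48.7 against 35.5 CpGs per kb. The CpG ranges of the kept and the other sites overlapped (24.4 to 73.5 and 4.98 to 128). The whole window held 26.3 CpGs per kb. In *Ezh2* KO, width and CpG density set the kept sites apart much alike. Their medians were 1679.5 against 884 bases and 46.2 against 34.7 CpGs per kb. Strength in WT set the 2 sets of *Ezh2* KO apart less, with medians of 47.1 and 19.1 and ranges that overlapped (21.9 to 152 and 10.3 to 96.7). The element printed above is the clearest case. Its WT peak, chr2:74590185-74591856 with a −log10 p of 96.7, was overlapped in *Ezh2* Y726D (29.9) and had no counterpart in *Ezh2* KO.

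Of the 5 SUZ12 lists, that of *Ezh2* R685C covered the most of the window. Its 22 peaks covered 65224 bases, 55.8% of the window, with a median width of 2092.5 bases against 981 over that list, and all 9 genes had a peak (8.44% of protein-coding genes). The stretch from *Hoxd12* to *Hoxd11* was covered over 100% of its bases and that from *Hoxd10* to *Hoxd9* over 98.1%. The values of *Hoxd4* (15.1) and *Hoxd1* (12.6) lay among the lower 40.3% and 26.2% of this list's peaks, whereas those of *Hoxd13* (93.7) and *Hoxd3* were at or above 95.7% and 93.8% of them. Of the 31 WT peaks, 30 were overlapped, beside 52.4% genome-wide.

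**Figure D2:**
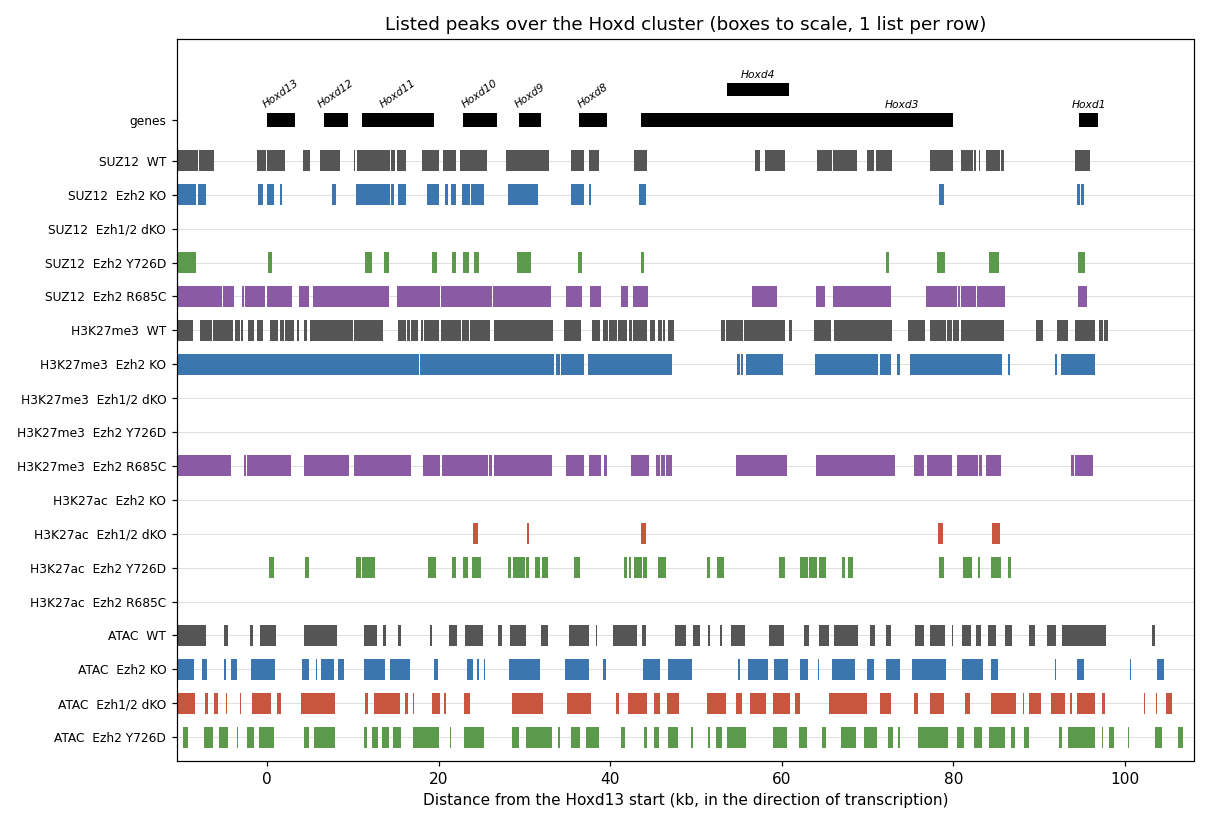
Listed peaks of SUZ12, H3K27me3, H3K27ac and ATAC over the *Hoxd* cluster, 1 row per list, with the 9 genes on top and distance from the *Hoxd13* start in kb on the horizontal axis. The *Ezh1/2* dKO rows of SUZ12 and H3K27me3, the *Ezh2* Y726D row of H3K27me3 and the *Ezh2* KO and *Ezh2* R685C rows of H3K27ac are empty.

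*H3K27me3.* The mark covered the cluster in each line with an active enzyme and was missing from both lines without one. In WT, 54 peaks covered 76162 bases, 65.2% of the window, and all 9 genes had a peak within 5 kb, beside 18.8% of protein-coding genes. In *Ezh2* KO, in which EZH1 is the only H3K27 methyltransferase of PRC2 left, 18 peaks covered 85402 bases, 73.1% of the window, and again all 9 genes had one, beside 14.8%. Those peaks were broad. Their median width was 3189 bases against 837 in the list as a whole, and the widest, of 15654 bases, ran from the *Evx2* end over almost all of *Hoxd13*. A second, of 15632 bases, ran from within *Hoxd11* across *Hoxd10* and *Hoxd9*. From *Hoxd13* to *Hoxd3* 93.8% to 100% of each stretch was covered in *Ezh2* KO, whereas the stretches that began at *Hoxd3*, *Hoxd4* and *Hoxd1* were covered over 35.9%, 66.5% and 15.1%. The *Ezh2* KO peaks over *Hoxd12* and *Hoxd11* stood above 99.8% and 99.9% of that list, and the peak at *Hoxd4* above 64.3% of it. Listed coverage is not an amount of the mark. Median −log10 p in the window was 17.3 in WT and 83.9 in *Ezh2* KO, so the lists differed in strength. With spike-in normalisation, the paper reports reduced H3K27me3 in *Ezh2* KO, without spread beyond SUZ12 peaks. Here, 26.2% of the *Ezh2* KO H3K27me3 bases lay under SUZ12 peaks of that line, and 58.4% did so in WT. The SUZ12 list of *Ezh2* KO was the shorter one, with 1578 peaks against 5404 in WT. The paper compared H3K27me3 density outside and inside SUZ12 peaks, so shares of listed bases do not test its statement.

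In *Ezh2* R685C, 26 peaks covered 71103 bases, 60.9% of the window, with all 9 genes marked (24.6% of protein-coding genes). The peak before *Hoxd13*, at the *Evx2* end, was the third strongest of 22245. *Ezh1/2* dKO and *Ezh2* Y726D listed no H3K27me3 peak in the window, 0 of 9 genes in each (exact 95% interval 0% to 33.6%). The background was 0.103% in *Ezh1/2* dKO, whose list held 53 peaks, and 1.34% in *Ezh2* Y726D, whose list held 3862. In *Ezh2* Y726D, then, 11673 bases carried SUZ12 and none of them H3K27me3, while in *Ezh2* KO 100% of the 22343 SUZ12 bases lay under H3K27me3, in WT 89.0% and in *Ezh2* R685C 90.8%.

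**Figure D3:**
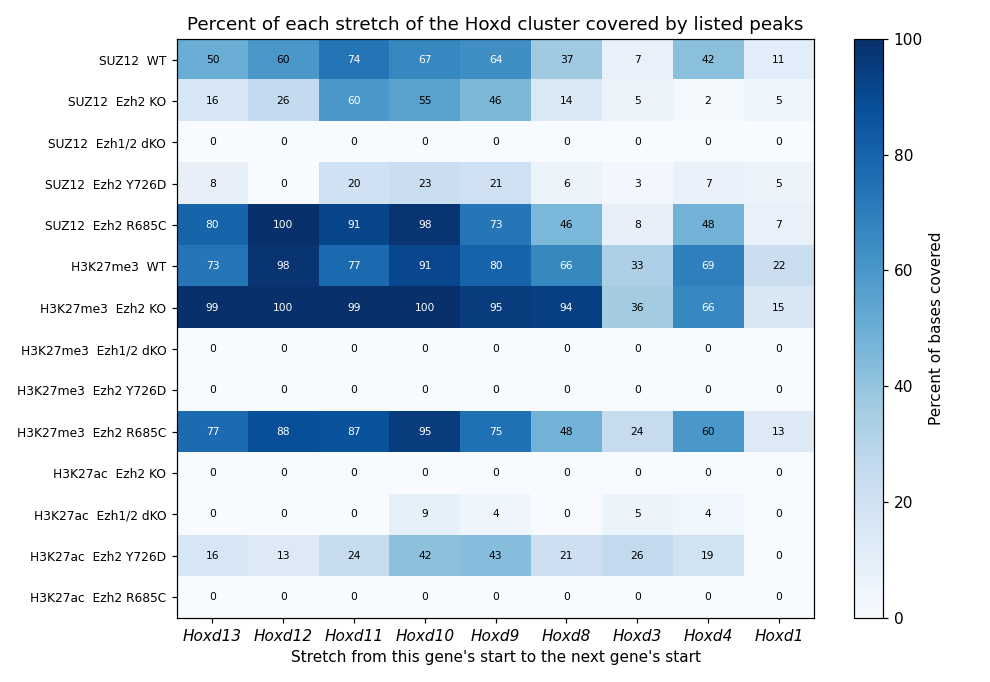
Percent of bases covered by listed peaks, for each stretch from the start of one *Hoxd* gene to the start of the next (columns, the last running to the window's end) and each list (rows). SUZ12 of *Ezh2* KO fills the *Hoxd11* and *Hoxd10* columns and drops to 2 in the *Hoxd4* column, and H3K27ac has values only in *Ezh1/2* dKO and *Ezh2* Y726D.

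*H3K27ac.* Acetylation was listed over the cluster in the lines that had no H3K27me3 there, and in no other line measured. The WT list was not analysed here. *Ezh2* KO and *Ezh2* R685C listed 0 peaks in the window among 25483 and 41185 in all, and 0 of 9 genes (exact 95% interval 0% to 33.6%), beside 37.9% and 46.0% of protein-coding genes. *Ezh1/2* dKO listed 5 peaks over 2942 bases, 2.52% of the window. With *Hoxd10*, *Hoxd9* and *Hoxd3*, 3 of 9 genes had a peak (exact 95% interval 7.49% to 70.1%), a share near the 28.6% of protein-coding genes. Within 1 kb of a TSS it was 2 of 9, without *Hoxd10*, beside 24.7% of protein-coding genes. The 5 peaks had a −log10 p of 10.2 at *Hoxd10*, 10.5 at *Hoxd9*, 16.4 and 12.2 at *Hoxd3* and 17.0 at the element, where 10 was the lowest value listed.

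*Ezh2* Y726D listed 32 H3K27ac peaks over 22320 bases, 19.1% of the window, and 8 of 9 genes had a peak, all except *Hoxd1*, beside 47.1% of protein-coding genes. Within 1 kb of a TSS it was 7 of 9, without *Hoxd12* as well, beside 41.8% of protein-coding genes. The mark was densest from *Hoxd10* to *Hoxd8*, where 41.7% and 43.0% of the 2 stretches were covered. The strongest peak of the window, with 27.9, lay over *Hoxd11*. At *Hoxd13*, whose transcript gave the highest counts of the cluster, the peak was weaker, with 13.1, and 37.7% of the peaks of the list were at or below that value. With a peak p of at most 1e-20, 5 of the 9 genes kept an acetylation peak in *Ezh2* Y726D, beside 24.9% of protein-coding genes, and 0 in *Ezh1/2* dKO, beside 9.27%.

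Acetylation and SUZ12 were listed on the same bases in *Ezh2* Y726D. They shared 6568 bases, which were 56.3% of the SUZ12 bases and 29.4% of the H3K27ac bases. Acetylation also followed the WT SUZ12 map, with 76.9% of its bases in *Ezh2* Y726D and 99.8% in *Ezh1/2* dKO inside WT SUZ12 peaks. Of the 31 WT peaks, 16 were overlapped by *Ezh2* Y726D acetylation, beside 28.3% of WT peaks genome-wide, and 5 by that of *Ezh1/2* dKO, beside 9.23%. The 5 *Ezh1/2* dKO peaks lay where *Ezh2* Y726D was acetylated as well, over 94.6% of their bases. The element between *Hoxd3* and *Hoxd1* carried the strongest H3K27ac peak between genes in both lines, with 27.5 at chr2:74590704-74591888 in *Ezh2* Y726D and 17.0 at chr2:74590817-74591861 in *Ezh1/2* dKO. The strong SUZ12 site at the *Evx2* end, in contrast, had no acetylation peak in either line.

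*Open chromatin.* The ATAC lists did not tell the lines or the genes apart. They held 752012 to 798241 regions each, most with a −log10 p near 1.35, and covered 39.6% to 44.7% of the *Hoxd* window. All 9 genes had a region within 5 kb in all 4 lines, beside 95.2% of protein-coding genes in WT, 95.0% in *Ezh2* Y726D, 95.2% in *Ezh1/2* dKO and 95.4% in *Ezh2* KO. The highest value within 5 kb of a *Hoxd* start was 2.54, at *Hoxd3* in *Ezh2* Y726D. At a cut-off of 10, 0 of 9 genes kept a region in any of the 4 lines, where 0.161% (*Ezh1/2* dKO and *Ezh2* Y726D), 0.170% (WT) and 0.183% (*Ezh2* KO) of protein-coding genes did.

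*Transcripts.* *Hoxd* transcripts were at or near 0 in WT and *Ezh2* KO and were present in the lines without an active enzyme. Summed over the 9 genes, the 2 libraries gave 0 and 7 reads in WT and 5 and 4 in *Ezh2* KO. The sums were 164 and 104 in *Ezh1/2* dKO, against 144 and 48 in *Ezh2* Y726D. The sum was 29.3-fold higher in *Ezh1/2* dKO than in WT (95% counting interval 14 to 73.5), 24.3-fold in *Ezh2* Y726D (11.6 to 61.3) and 25.3-fold in *Ezh1/2* dKO than in *Ezh2* KO (13.1 to 56.0). These intervals pool both libraries of a line and cover counting error only. They do not cover the spread between libraries, which was wide in *Ezh2* Y726D. Between *Ezh2* KO and WT the ratio was 1.16 (0.383 to 3.65). The cluster remained a low-output locus at its highest, with 164 of the 5181553 reads on genes in *Ezh1/2* dKO replicate 1. Since these were bulk samples, low transcription in all cells and higher transcription in a few cells cannot be told apart.

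**Figure D4:**
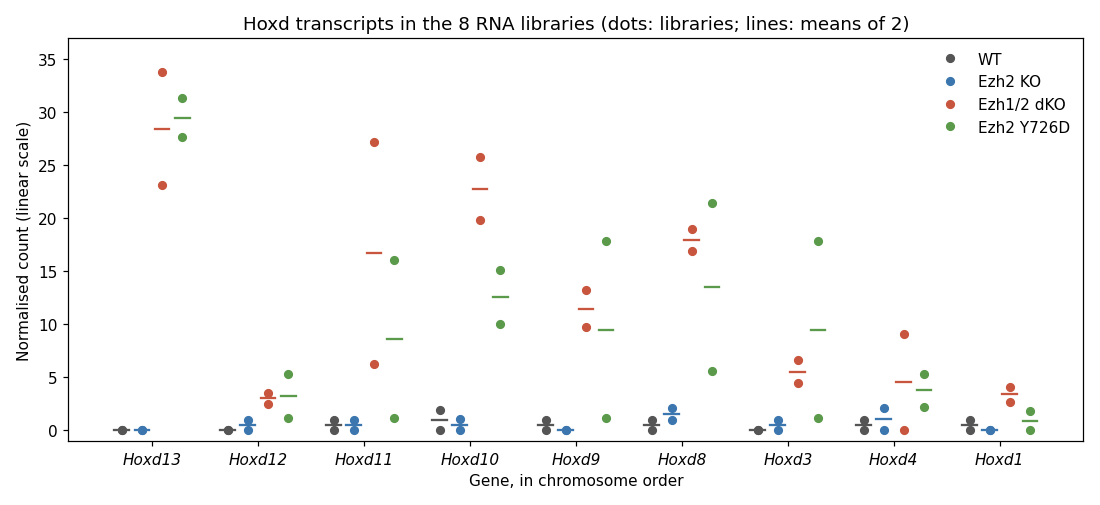
Normalised counts of the 9 *Hoxd* genes in chromosome order, with a dot for each of the 8 RNA libraries and a line at the mean of each pair, coloured by line. WT and *Ezh2* KO stay at or below 2.09, *Hoxd13* reaches 23.1 to 33.8 in the 4 libraries of *Ezh2* Y726D and *Ezh1/2* dKO, and the *Ezh2* Y726D pairs of *Hoxd11*, *Hoxd9*, *Hoxd8* and *Hoxd3* lie far apart.

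Fold changes were tested with limma over the 13872 genes whose mean normalised count over all libraries was at least 5. The test was made on log2(normalised count + 1), a scale that understates the change of low genes, with Benjamini-Hochberg adjustment over all genes tested. A call required an adjusted p under 0.1 together with a log2 fold change of 1 or more. *Hoxd8*, *Hoxd9*, *Hoxd10*, *Hoxd11* and *Hoxd13* passed the filter, and they passed only through their counts in *Ezh1/2* dKO and *Ezh2* Y726D, so that their number is no evidence of a change. *Hoxd1*, *Hoxd3*, *Hoxd4* and *Hoxd12* did not pass. *Hoxd13*, *Hoxd10* and *Hoxd8* were called higher in *Ezh1/2* dKO than in WT (3 of the 9 genes, beside 3.63% of all genes tested), in *Ezh2* Y726D than in WT (3, beside 1.66%) and in *Ezh1/2* dKO than in *Ezh2* KO (3, beside 3.52%). Of the 9 genes, 0 were called by limma between *Ezh2* KO and WT (0.404% of all genes called in either direction) or between *Ezh2* Y726D and *Ezh1/2* dKO (1.68%), and DESeq2, edgeR and an unadjusted p under 0.05 also gave 0 in both. When all 9 genes were kept in the fit, without a filter, the same 3 were called in *Ezh1/2* dKO against WT (2.69% of 18055 genes) and *Hoxd13* alone in *Ezh2* Y726D against WT (0.925%), as with DESeq2 and edgeR on the reads. Calls in *Ezh1/2* dKO rested on having both of its libraries, since without replicate 1 or 2 of that line 0 of the 9 genes were called against WT, when only 9 and 3 genes in all were. Against *Ezh2* KO, 0 and 1 were called without those libraries and 1 without *Ezh2* KO replicate 2. In *Ezh2* Y726D against WT, leaving out WT replicate 1 or *Ezh2* Y726D replicate 1 left 1 call, that of *Hoxd13*, and leaving out either replicate 2 left 2. All libraries share one estimate of the spread, so that libraries of other lines mattered as well. Without either *Ezh2* Y726D library, all 5 genes tested were called in *Ezh1/2* dKO against WT (5.23% and 5.28% of all genes called in either direction) and against *Ezh2* KO (4.54% and 4.47%), and without any 1 *Ezh2* KO or *Ezh1/2* dKO library *Hoxd13* alone was called in *Ezh2* Y726D against WT.

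*Hoxd13*, the terminal gene of the cluster and a regulator of digit formation, showed the clearest separation. Its normalised count was 0 in both WT and both *Ezh2* KO libraries, 33.8 and 23.1 in *Ezh1/2* dKO, against 27.6 and 31.3 in *Ezh2* Y726D. The 2 lines in which it was present did not overlap with the other 2, and the *Ezh2* Y726D values lay within the range of *Ezh1/2* dKO. Against a floor of 3 reads over the WT pair it was at least 17.1-fold higher in *Ezh1/2* dKO and at least 17.4-fold higher in *Ezh2* Y726D, and in *Ezh1/2* dKO at least 19.0-fold higher than in the *Ezh2* KO pair. The fitted log2 differences from WT were 4.86 ± 0.594 (SE, adjusted p = 0.00868) and 4.93 ± 0.594 (adjusted p = 0.0102). *Hoxd13* was called in *Ezh2* Y726D against WT under every alternative that tested it, and in *Ezh1/2* dKO under all but those that left out an *Ezh1/2* dKO library.

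*Hoxd10*, which takes part in patterning the hindlimb and its motor neurons, had 0 and 1.93 normalised counts in WT and 1.05 and 0 in *Ezh2* KO. It had 19.8 and 25.7 in *Ezh1/2* dKO, against 15.2 and 10.1 in *Ezh2* Y726D. Every library of these 2 lines stood above every WT and *Ezh2* KO library. In reads, the ratio to WT was 20.3 in *Ezh1/2* dKO (95% counting interval 5.34 to 172) and 11.5 in *Ezh2* Y726D (2.89 to 100.3). The fitted log2 differences were 3.79 ± 0.741 (adjusted p = 0.0371) and 2.97 ± 0.741 (adjusted p = 0.0928).

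*Hoxd8* had 0 and 0.963 normalised counts in WT and 2.09 and 0.968 in *Ezh2* KO. It had 19.0 and 16.9 in *Ezh1/2* dKO, against 21.4 and 5.59 in *Ezh2* Y726D. The groups did not overlap here either, but the *Ezh2* Y726D libraries differed by more than those of *Ezh1/2* dKO. The log2 differences from WT were 3.75 ± 0.762 (adjusted p = 0.0398) and 3.12 ± 0.762 (adjusted p = 0.0872). Counting did not use strand, and *Hoxd8* overlaps the antisense transcript *1700109F18Rik*, so that reads of the pair cannot be told apart.

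*Hoxd11* and *Hoxd9*, both regulators of limb and trunk patterning, were not called. *Hoxd11* had 27.2 and 6.22 normalised counts in *Ezh1/2* dKO and 16.0 and 1.12 in *Ezh2* Y726D, against 0.968 at most in WT and *Ezh2* KO, with a log2 difference of 3.35 ± 1.10 in *Ezh1/2* dKO against WT (adjusted p = 0.150). *Hoxd9* had 13.2 and 9.77 in *Ezh1/2* dKO and 17.8 and 1.12 in *Ezh2* Y726D, against 0.963 at most, with a log2 difference of 3.14 ± 1.01 (adjusted p = 0.144). Replicate 2 of *Ezh2* Y726D lay close to the WT libraries for both genes. *Hoxd11* and *Hoxd10* overlap the annotated transcript *Gm20440*, which makes the split of reads there uncertain.

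The 4 genes below the filter had 0 to 20 reads per library in *Ezh1/2* dKO and *Ezh2* Y726D. *Hoxd3*, needed in the cervical vertebrae, had 6.59 and 4.44 normalised counts in *Ezh1/2* dKO and 17.8 and 1.12 in *Ezh2* Y726D, the same values as *Hoxd9* in that line. *Hoxd4* had 9.07 and 0, and 5.35 and 2.24. The overlap of *Hoxd3* with *Hoxd4* and with the microRNA gene *Mir10b* leaves both values uncertain. *Hoxd12* had 2.47 and 3.55 in *Ezh1/2* dKO and 5.35 and 1.12 in *Ezh2* Y726D, and *Hoxd1* had 4.12 and 2.66, and 1.78 and 0. In WT and *Ezh2* KO these 4 genes had 2.09 at most. Without the filter their log2 differences from WT in *Ezh1/2* dKO were 1.18 to 2.68, with adjusted p from 0.172 to 0.587 (limma).

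Levels were compared between genes per kb of annotated exon. The lengths join all GENCODE vM1 transcripts of a gene, whereas reads were counted over RefSeq genes, so the order depends on the annotation. By mean normalised count, *Hoxd11* (16.7) stood above *Hoxd9* (11.5) in *Ezh1/2* dKO. In *Ezh1/2* dKO the order of mean normalised count per kb was *Hoxd13* (11.5, libraries 9.30 and 13.6), *Hoxd10* (8.59, 7.46 and 9.71), *Hoxd8* (6.53, 6.15 and 6.91), *Hoxd9* (5.26, 4.47 and 6.04) and *Hoxd11* (3.08, 1.15 and 5.01). The remaining 4 genes lay between 0.953 and 1.82. The libraries of *Hoxd13* and *Hoxd10* overlapped on this scale, as did those of *Hoxd9* and *Hoxd11*, whereas those of *Hoxd10*, *Hoxd8* and *Hoxd9* did not overlap with each other. In *Ezh2* Y726D *Hoxd13* led with 11.9 (11.1 and 12.6), and its libraries lay above every library of the other 8 genes, the highest of which was *Hoxd9* with 8.17. *Hoxd12*, between *Hoxd13* and *Hoxd11*, had 1.15 and 1.23 in the 2 lines. Chromosomal order was not the order of level, since the terminal gene led and its neighbour was among the lowest.

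Transcripts and peaks did not rank the genes alike. *Hoxd13* had the highest mean level in *Ezh1/2* dKO but no H3K27ac peak there. *Hoxd3*, with the strongest promoter peak of the 9 genes in that line, was among the low genes. Its mean per kb was the lowest (0.953), but its libraries overlapped those of *Hoxd12* and *Hoxd4* on that scale. By mean normalised count, *Hoxd12* (3.01), *Hoxd1* (3.39) and *Hoxd4* (4.53) lay below *Hoxd3* (5.52). In *Ezh2* Y726D *Hoxd13* combined the highest level with a SUZ12 peak of 13.3 and an acetylation peak of 13.1. *Hoxd1*, the gene without acetylation in *Ezh2* Y726D, had the lowest mean level there, 0.479 per kb, and kept a SUZ12 peak of 16.6. That level rested on 2 reads, too few to rank the gene. *Hoxd4* had SUZ12 in neither *Ezh2* KO nor *Ezh2* Y726D, but H3K27me3 in the former, where it had 2.09 and 0 normalised counts.

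The genes around the cluster did not move with it. *Evx2*, the nearest, was listed at 0 in 7 libraries and at 2.24 in *Ezh2* Y726D replicate 2. The strongest WT SUZ12 site of the window lies over its annotated start. SUZ12 peaks covered 2373 of the 2443 bases within 1 kb of the *Evx2* starts in WT. *Lnp*, farther out on the *Evx2* side, had 327 ± 33.6 normalised counts in WT, 381 ± 87.9 in *Ezh2* Y726D, 472 ± 23.0 in *Ezh1/2* dKO and 432 ± 25.4 in *Ezh2* KO (SD, n = 2). *Mtx2*, on the *Hoxd1* side, had 377 ± 37.1, 462 ± 5.03, 329 ± 36.5 and 259 ± 101 in the same order (SD, n = 2). Of *Lnp*, *Mtx2*, *Atp5g3* and *Hnrnpa3*, 0 were called in any of the 5 comparisons by limma.

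The genes whose counts over the 8 libraries were most like those of *Hoxd13* were *Kcnj3*, a potassium channel gene, *Lrrfip1* and *Hoxa11os*, the antisense transcript of *Hoxa11*. Their correlations with it, as Pearson's r of log2(normalised count + 1) across 8 libraries, were 0.992, 0.989 and 0.988. The 8 points are 4 lines of 2 libraries and share each library's depth, so that r describes a likeness of pattern only. *Kcnj3* had 10.6 to 14.7 normalised counts in WT and *Ezh2* KO and 54.2 to 73.8 in the other lines, and *Hoxa11os* had 0 to 1.33 against 63.9 to 189.

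Some markers of other cell types were higher than in WT in *Ezh1/2* dKO and *Ezh2* Y726D, and the trophectoderm sum was higher in *Ezh2* KO as well. *Ezh1/2* dKO and *Ezh2* Y726D had summed normalised counts of 7 primitive endoderm markers of 1265 to 1298 and 995 to 1736, against 443 to 519 (WT) and 373 to 656 (*Ezh2* KO). Of the 4 tested, 3 and 1 were called higher than in WT, beside 3.63% and 1.66% of all genes tested. *Lama1*, the largest of the 7 in WT, had 352 ± 97.5 normalised counts there, 403 ± 152 in *Ezh1/2* dKO and 497 ± 368 in *Ezh2* Y726D (SD, n = 2). *Gata4*, a regulator of that lineage, had 21.3 ± 1.30 and 15.0 ± 0.988 normalised counts against 3.74 ± 1.52 in WT, and *Col4a1*, a basement membrane collagen, 778 ± 167 and 836 ± 167 against 114 ± 46.6 (SD, n = 2). *Sox17* and *Foxa2*, which also define the lineage, were at 0 in both *Ezh2* Y726D libraries and had 2.89 at most in any library. The 6 trophectoderm markers summed to 719 to 805 and 654 to 1153, against 243 to 288 and 462 to 472. Of the 5 tested, 3 were called higher than in WT in each, beside the same shares of all genes tested. In *Ezh2* KO 0 were called, with a median log2 difference from WT of 1.09. *Cdx2* had 33.0 and 440 normalised counts in the *Ezh2* Y726D libraries. *Eomes* had 33.6 ± 7.30 in *Ezh1/2* dKO against 32.5 ± 5.04 in WT (SD, n = 2). *Elf5*, the marker not tested, had 2.90 at most in any library. Fibroblast markers, 3 of 5 in the table, summed to 98.1 to 115 and 86.1 to 88.3, against 4.81 to 12 and 13.5 to 16.7, nearly all from *Thy1*, the 1 marker tested and called. The 4 mesoderm markers in the table ranged from 11.5 to 176 and the 3 neural ones from 29.3 to 179 over all libraries, with 0 called against WT. The 10 ESC markers summed to 14034 to 15470 in the 2 lines and 15567 to 17383 in WT and *Ezh2* KO, with 0 of 10 called by limma in any comparison. The part of such cells in the *Hoxd* counts was not tested.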

How the data were processed

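RNA was measured in 8 libraries and ChIP or ATAC in 1 list per line and target. Per the methods, RNA libraries (SMART-seq2) were aligned by the authors to mm9 with TopHat, freed of duplicates with PICARD, counted with HTSeq-count without strand over RefSeq genes, and scaled with DESeq2. The deposited table holds this signal (normalised counts), of which 100% were whole multiples of the value of 1 read per library (relative tolerance 1e-06). Recovered reads summed to 3604123 to 5181553 per library. ChIP and ATAC reads were, per the submitters' processing notes, aligned to mm9 with Bowtie and called with MACS2. The peak lists were deposited with the −log10 p of each peak and, in narrow lists, its fold enrichment ratio over background as MACS2 gave them, and the authors list narrow peaks with a p of at most 1e-10 only. Broad lists (ATAC, H3K27me1, H3K27me2) hold weaker regions and were used as deposited. Depth behind the peaks is not given in the sources used here, and no difference between lists was tested; widths, coverage and strength of different lists stand side by side as listed. HA lists hold positions only. Samples labelled *Ezh2* Y726D without mention of *Ezh1* were taken as that line.

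Promoter counts took peaks within 5 kb of a TSS (GENCODE vM1, mm9) with exact binomial intervals, which cover the number of genes only. They take neighbouring genes as independent, although such genes can share a peak. Expression was tested with limma 3.58.1 (trend) in R 4.3.3 over all 8 libraries, with edgeR 4.0.16 and DESeq2 1.42.0 on recovered reads as alternatives, and peaks with Python 3.11.15, NumPy 2.4.6 and SciPy 1.17.1. The scripts were tested on simulated data. Sequences were read from the mm9 genome. The text names all 9 *Hoxd* genes, the flanking and edited genes, called *Hox* cofactors and the 3 genes most like the highest *Hoxd* gene. Members and lists were chosen with earlier results of these data known.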

Additional observations from a re-analysis of the deposited data

Results flagged for a closer look

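Peak lists outside the main comparisons covered more of the *Hoxd* window than their control list, the untagged line for HA and WT for the other marks. In *Ezh1/2* dKO cells that re-expressed HA-tagged EZH1, HA peaks covered 41218 bases of the window, 35.3% of it, with 26 peaks, where the HA list of *Ezh1/2* dKO cells without the tag covered 0 bases. Of the 41218 bases, 96.1% lay inside WT SUZ12 peaks, and 25 of the 31 WT SUZ12 peaks were overlapped, beside 51.8% genome-wide.

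H3K27me1, the monomethyl form, covered 0 bases in WT, 23668 in *Ezh2* Y726D, 22607 in *Ezh2* KO and 5696 in *Ezh1/2* dKO. In *Ezh2* KO the 18 regions lay on the *Hoxd1* side, with 34.8%, 33.2% and 45.0% of the stretches that begin at *Hoxd3*, *Hoxd4* and *Hoxd1* covered and 0% of those from *Hoxd13* to *Hoxd8*. They shared 0 bases with the SUZ12 peaks of that line. H3K27me2, the dimethyl form, covered 1967 bases in WT, 22418 in *Ezh2* Y726D, 18716 in *Ezh1/2* dKO and 109454 in *Ezh2* KO (93.7% of the window, the widest region 68123 bases long). These broad lists are permissive, with a median −log10 p of 1.26 to 1.51 over each list, and they hold regions in both lines without an active enzyme, *Ezh1/2* dKO and *Ezh2* Y726D. The H3K27me1 coverage in *Ezh2* KO was below that in *Ezh2* Y726D. Differences between these lists were not tested.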

How the results depend on the processing

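Peak counts moved with the strength asked of a peak. With SUZ12 peaks of p at most 1e-20, 3 of the 9 genes kept a peak in *Ezh2* Y726D (2.41% of protein-coding genes), and 1 among its strongest 317 peaks (1.22%). With that cut-off H3K27ac was left at 0 genes in *Ezh1/2* dKO (9.27%) and 5 in *Ezh2* Y726D (24.9%). ATAC regions with p at most 1e-10 were at 0 of 9 genes in each of the 4 lines. H3K27me3 counts stayed within 1.5 times of the main counts throughout. With an unadjusted p under 0.1, 5 genes passed in each of *Ezh1/2* dKO against WT, *Ezh2* Y726D against WT and *Ezh1/2* dKO against *Ezh2* KO, beside 11.8%, 9.49% and 11.1% of all genes tested. Fitting only the libraries compared gave 5, 1 and 5, beside 4.73%, 0.231% and 8.51%. Quantile normalisation gave 1 in *Ezh1/2* dKO against *Ezh2* KO, beside 1.27%. *Ezh2* Y726D against WT fell to 1 gene, *Hoxd13*, without a filter on low values (beside 1.51%) and with DESeq2 (3.45%) and edgeR (2.36%). A mean normalised count of at least 20 left 0 *Hoxd* genes to test, and so no value. The cause of these differences was not tested.

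Leaving out 1 of the 8 libraries gave 0 to 5 calls in *Ezh1/2* dKO against WT, 1 to 2 in *Ezh2* Y726D against WT and 0 to 5 in *Ezh1/2* dKO against *Ezh2* KO. Over libraries of the lines compared alone the ranges were 0 to 3, 1 to 2 and 0 to 2, and leaving out libraries of the other lines was chosen after seeing the data. The lone library of a line was then assumed to vary like the other lines. Uncalled differences changed sign. In *Ezh2* KO against WT, the log2 difference of *Hoxd10* (-0.26) was 0.000596 with quantile normalisation and -1.03 to 0.52 with a library left out, and that of *Hoxd11* (0.00177) was -0.000765 with upper-quartile rescaling, -0.15 with DESeq2, -0.11 with edgeR and -0.49 to 0.49 with a library left out. In *Ezh2* Y726D against *Ezh1/2* dKO, leaving out a library gave -0.19 to 0.34 for *Hoxd13*, -2.75 to 0.26 for *Hoxd11*, -1.52 to 0.25 for *Hoxd8* and -2.54 to 0.61 for *Hoxd9*.

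The lines share replicate numbers, and r of the deviations of same-numbered libraries from the line means, across genes, was 0.223 to 0.288 over the 3 pairs of mutant lines and -0.409 to -0.0653 over the 3 pairs with WT. With r of both signs and no label of a shared batch, the numbers were not taken as pairs. With a replicate block, *Hoxd* calls were 3 in *Ezh1/2* dKO against WT, 1 (*Hoxd13*) in *Ezh2* Y726D against WT and 2 in *Ezh1/2* dKO against *Ezh2* KO. Of all genes tested, 3.71%, 2.38% and 2.97% were called in either direction.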

Other observations

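HOX proteins bind DNA with cofactors of the PBX, MEIS and PKNOX families, and all 9 cofactor genes listed were expressed and tested. *Meis1* was called higher than in WT in *Ezh2* KO (log2 difference 1.96, adjusted p = 0.0909), in *Ezh1/2* dKO (2.73, adjusted p = 0.0110) and in *Ezh2* Y726D (1.84, adjusted p = 0.0480), with 22.9 ± 9.18 normalised counts in WT, 89.4 ± 17.0, 153 ± 34.9 and 82.2 ± 16.6 in the mutant lines (SD, n = 2). *Meis2* was called in *Ezh2* KO (1.36, adjusted p = 0.0262), with 534 ± 23.6 against 207 ± 4.10 in WT (SD, n = 2, limma). The other 7 were not called. *Meis1* was thus higher in *Ezh2* KO, where the *Hoxd* genes stayed at or near 0. The median log2 difference of the 9 was 0.42, 0.65 and 0.59 in the 3 lines, beside -0.01, 0.01 and -0.01 over all genes tested.

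The *Hox* clusters differed from one another in *Ezh2* KO. SUZ12 peaks covered 19.1% of the *Hoxd* window and 20.6% of the *Hoxa* window, 7.09% of *Hoxb* and 0% of *Hoxc*, while WT had 42.8%, 47.9%, 25.6% and 35.8%. H3K27me3 peaks covered 73.1% of *Hoxd*, 74.3% of *Hoxa*, 53.3% of *Hoxb* and 9.99% of *Hoxc* in *Ezh2* KO. In WT they covered 65.2%, 73.6%, 44.4% and 63.9%. Listed coverage of both SUZ12 and H3K27me3 was thus lower than in WT at *Hoxc* alone. In *Ezh2* Y726D H3K27ac covered 19.1% of *Hoxd*, 30.6% of *Hoxa*, 4.77% of *Hoxb* and 26.4% of *Hoxc*. H3K27me1 in the same line covered 20.3% of *Hoxd* but 0% of *Hoxa* and *Hoxc*. Of the genes of other clusters, *Hoxa* had 5 of 11 called higher than WT in *Ezh1/2* dKO and also 5 in *Ezh2* Y726D, *Hoxb* 1 of 7 in each, and *Hoxc* 2 and 1 of 9, with 0 called in *Ezh2* KO by limma. Of all genes tested, 3.63% and 1.66% were called higher in the first 2 lines, and 0.404% in either direction in *Ezh2* KO. In *Ezh2* KO against WT, 5 of the 6 *Hoxc* genes tested were higher, though uncalled, with a median log2 difference of 1.21. The medians of the genes tested were 0 for *Hoxd*, 0.31 for *Hoxa* and -0.06 for *Hoxb*, beside -0.01 over all genes tested. The coverage values are of 1 list per line, and the differences between clusters were not tested.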
